A study of Mus musculus with 2 samples.

Results

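The transcripts examined were those of 10 genes that encode feedback inhibitors of ERK signaling. They are the dual specificity phosphatases Dusp1, Dusp4, Dusp5 and Dusp6, the Sprouty genes Spry1, Spry2 and Spry4, and the Spred genes Spred1, Spred2 and Spred3. They were chosen by name and by their known role, not by their values, from 26082 genes in the files. Earlier results of these data were known when they were chosen. All 10 had a mean FPKM of at least 1 over both libraries, as did 11213 genes in all, which are called the genes tested. FPKM is the number of sequenced fragments scaled by the length of the transcript and by the total of the library, so levels can be compared between genes.

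RNA was sequenced from primary mouse fibro-adipogenic progenitors (FAPs), the mesenchymal cells of skeletal muscle that can become adipocytes. Cells labelled as wild type were transfected with plasmids that overexpress TGFBR3 or with the empty vector as control, and 1 library was made per condition. TGFBR3, also called betaglycan, is a co-receptor that presents TGF-β family ligands to the signaling receptors. Both cultures are labelled as adipogenic differentiation, for which the labels describe an induction medium with serum, the phosphodiesterase inhibitor IBMX, the glucocorticoid dexamethasone and insulin. The study sorted FAPs from the hind limb muscles of C57BL/6 mice by flow cytometry, and the labels give neither the age of the animals behind these 2 libraries nor the time between transfection and harvest, nor the medium at harvest. The overexpression came from a plasmid, and how many cells of the culture took it up is not given.

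Growth factor receptors activate RAS, which switches on the kinases RAF, MEK and ERK in turn, and active ERK then induces transcripts whose proteins switch the same cascade off. Dual specificity phosphatases remove both activating phosphates from ERK and related MAP kinases, and they work in the nucleus (DUSP1, DUSP4 and DUSP5) or in the cytoplasm (DUSP6). Sprouty and Spred proteins act upstream of ERK, where they limit the activation of RAS and RAF, and Spred proteins do so by bringing the RAS inactivator neurofibromin to the membrane. In preadipocytes ERK signaling is known to act both on cell division and on the course of adipogenesis, which is why its inhibitors are of interest in FAPs.

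Promoters are shown first for the genes that differed most within their families, Spry1 against Spry2 and Dusp1 against Dusp5. The sequences come from the RefSeq promoter table of build GRCm38.p6, which held 8 of the 10 members. Positions count back from the RefSeq start of transcription, with −1 as the last base before it. Both strands were searched, and capitals mark only the motifs named here for each gene. In Dusp5 these are 2 adjacent CArG boxes, the element bound by serum response factor. In Dusp1 they are a cAMP response element (TGACGTCA), the site of CREB, and then an E-box (CACGTG), a site of basic helix-loop-helix factors. In Spry1 they are a GC box (GGGCGG), a site of Sp1, and the same stretch of Spry2 held none of the motifs searched.
Dusp5, chr19:53529035-53529104, plus strand, −110 to −41: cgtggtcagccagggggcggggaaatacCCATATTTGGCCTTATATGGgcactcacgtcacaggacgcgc
Dusp1, chr17:26508573-26508672, minus strand, −200 to −101: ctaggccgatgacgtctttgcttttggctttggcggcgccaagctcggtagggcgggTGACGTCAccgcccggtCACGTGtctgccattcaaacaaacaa
Spry1, chr3:37639847-37639946, plus strand, −100 to −1: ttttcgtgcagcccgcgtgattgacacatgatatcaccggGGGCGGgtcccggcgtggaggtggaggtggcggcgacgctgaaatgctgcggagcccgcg
Spry2, chr14:105896820-105896919, minus strand, −100 to −1: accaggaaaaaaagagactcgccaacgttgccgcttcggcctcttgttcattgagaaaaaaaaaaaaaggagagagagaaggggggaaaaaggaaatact

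Each stretch lies upstream of the RefSeq start of its gene. The GENCODE span of Dusp1 reaches further upstream, to 26562128, so its stretch lies inside that span but overlaps no GENCODE exon. In the GENCODE annotation of the same build, the Spry1 stretch overlaps an exon of Gm42922 and the Dusp5 stretch an exon of AC137853.2, both on the opposite strand.

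Over the 250 bases before the start, the CArG boxes of Dusp5 lie at −82 to −73 and −72 to −63, and no other member window held one. Of all 32851 windows in the table, 1.47% held a CArG box. The cAMP response element of Dusp1 lies at −143 to −136, no other member held a full one, and 1.55% of all windows did. Its E-box lies at −126 to −121, and 6.02% of all windows held an E-box. A shorter form of the cAMP element (TGACG), which also matches within the full element, was found in Dusp1, Dusp5 and Spred2 and in 17.8% of all windows. GC boxes were found in 6 of the 8 member windows and in 32.7% of all windows. None of them overlaps another motif searched, and in Dusp1 a pair of them flanks the cAMP element. None of the 8 windows held an AP-1 site (TGANTCA, 6.75% of all windows), an ETS site (CCGGAAGT, 2.88%), a glucocorticoid receptor hexamer (AGAACA, 16.1%), a TATA box (TATAAA, 12.4%), an amino acid response element (TGATGCAAT, 0.167%) or an interferon-stimulated response element core (GAAANNGAAA, 2.98%). The GC content of the 250 upstream bases was 55.6 to 70.8% over the 8 members, against a median of 52.4% over all windows. These matches describe letters in the window and not binding.

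The deposited counts summed to 62321027 for the library labelled TGFBR3 OE (overexpression) and to 83779203 for the vector control, and the members' own counts ran from 253 to 4858 and from 491 to 5338. Tgfbr3 itself was nearly the same in both, at 36.87 and 35.13 FPKM, a log2 ratio of 0.07 (95% interval 0.04 to 0.10). The overexpression is therefore not visible in the deposited Tgfbr3 values, and the library is named below by its label. Of the FAP markers Pdgfra, Ly6a, Cd34, Dcn and Dpt, all 5 were above 1 FPKM in both libraries, but they differed in both directions. Pdgfra was at 30.48 FPKM in the library labelled TGFBR3 OE and 32.60 in the control, Ly6a at 1012.73 and 706.37, Cd34 at 20.62 and 25.68, Dcn at 18.16 and 16.40, and Dpt at 3.48 and 8.72. The summed level of 4 adipocyte markers was 34.77 FPKM in the library labelled TGFBR3 OE and 67.97 in the control. The summed levels of muscle, endothelial and leukocyte markers were each between 0.39 and 1.13 FPKM in either library, and the leukocyte markers Ptprc and Adgre1 were listed at 0. The muscle markers Pax7 and Myod1 and the leukocyte marker Cd3e had no deposited values. The muscle sum therefore rests on Des and Myog. Acta2, a marker of smooth muscle that myofibroblasts share, stood at 322.52 and 499.31 FPKM, while the pericyte marker Rgs5 was at 0.14 and 0.12. The part of these shifts in the values of the 10 inhibitors was not tested.

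Ratios below are log2 ratios of (FPKM + 1), library labelled TGFBR3 OE over vector control, unless another scale is named. Intervals are 95% Clopper-Pearson intervals of the gene's share of the counts. With 1 library per condition they cover counting error only, and they compare these 2 libraries, not the 2 conditions. The tested genes as a whole were not centred on 0: their median ratio was 0.14, 7079 were higher and 4115 lower, and the middle 50% of them lay between −0.14 and 0.40. A shift of 0.15 in the log2 ratio of FPKM, without the added 1, was needed to bring the median gene to 0. It was taken from 10626 genes with at least 1 FPKM in both libraries. Members are also given after this centring, which left the tested genes a median ratio of 0.01.

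None of the 10 feedback inhibitors differed by 1.5-fold between the libraries on this scale. Of the genes tested, 13.3% passed 1.5-fold upward, that is toward the library labelled TGFBR3 OE, and 4.91% downward, while 3.14% and 1.03% passed 2-fold. Read against these shares, 0 of 10 in either direction does not set the members apart. With the plain FPKM ratio 1 member, Spry1, passed 1.5-fold downward, as did 6.84% of the tested genes, and with a pseudocount of 0.1 in place of 1 it did so beside 6.6% of them. After the plain ratio was centred as well, 2 members, Spry1 and Dusp5, were past it, beside 11.2% of the tested genes. The ratio was above 0 for 6 members and below 0 for 4, with a median ratio of 0.03, and 4 members stood above the median of the tested genes and 6 below it. The intervals of Dusp1, Spry2, Spred1 and Spred2 lay above 0, and those of Dusp5 and Spry1 below it. Those of Dusp4, Dusp6, Spry4 and Spred3 crossed 0. Set against the median of the tested genes, 0.14, the intervals of Dusp4, Dusp6 and Spred3 lay below it. The share of tested genes whose interval excludes 0 was not computed, so these calls do not set the members apart. As these are bulk RNA values, a change in the number of cells that express a gene and a change of its RNA per cell cannot be told apart.

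**Figure D1:**
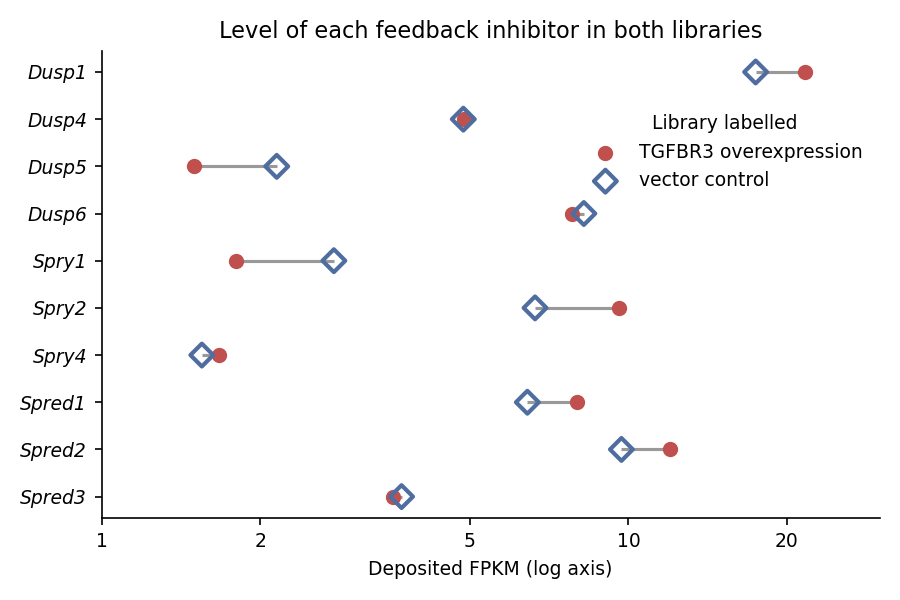
Level of each of the 10 feedback inhibitors in FPKM (log axis), with filled circles for the library labelled TGFBR3 OE and open diamonds for the vector control, 1 library each. Dusp1 was the highest in both libraries (21.62 and 17.44), and Dusp5, Spry1 and Spry4 were the lowest, at 1.5 to 2.76.

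**Figure D2:**
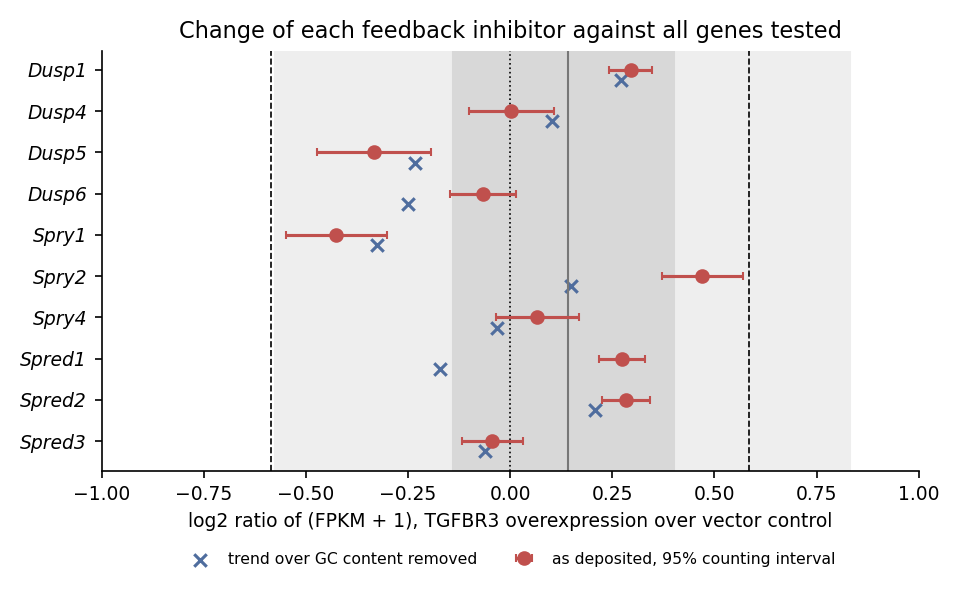
Log2 ratio of (FPKM + 1) for each member, with 95% counting intervals as bars and the ratio after removal of the GC trend as blue crosses. The light and dark bands hold the middle 90% and 50% of the 11213 genes tested, the solid line is their median of 0.14 and the dashed lines mark 1.5-fold in either direction. All 10 circles lie between the dashed lines.

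Among the nuclear phosphatases, Dusp1 was higher and Dusp5 lower in the library labelled TGFBR3 OE, while the interval of Dusp4 crossed 0. Dusp1 (ENSMUSG00000024190, chr17:26505590-26562128, minus strand) is an immediate early gene whose product acts on p38 and JNK as well as ERK. It stood at 21.62 FPKM, against 17.44 in the control, from 4858 and 5338 counts. The ratio was 0.29 (interval 0.24 to 0.35), or 1.24-fold in plain FPKM, and 65.2% of the tested genes had a lower ratio. After centring 0.15 was left. The lead of Dusp1 thus lay inside the middle 50% of the tested genes.

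Dusp4 (ENSMUSG00000031530, chr8:34807297-34819894, plus strand), the nuclear phosphatase closest to Dusp1 in its targets, was at 4.87 FPKM in the library labelled TGFBR3 OE and 4.86 in the control, from 906 and 1231 counts. The ratio was 0.00 (−0.10 to 0.11). A difference in either direction of up to 1.09-fold in plain FPKM lies within its counting interval, whose lower bound was 0.919. After centring the ratio was −0.12, so its sign depends on the scaling.

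Dusp5 (ENSMUSG00000034765, chr19:53529109-53542431, plus strand) encodes a phosphatase that is selective for ERK and holds it in the nucleus. It was one of the lowest members, at 1.5 FPKM in the library labelled TGFBR3 OE and 2.15 in the control, from 253 and 491 counts. The control was 1.43-fold higher in plain FPKM (1.23 to 1.67), and the ratio was −0.33 (−0.47 to −0.19). A share of 13.1% of the tested genes had a lower ratio, and after centring it was −0.42. The plain log2 ratio was −0.52, and −0.67 after centring, which is past 1.5-fold. Dusp5 was lower than the control under every scaling tried, and its exons overlap those of the antisense gene AC137853.2, not analysed here, over 547 bases.

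The cytoplasmic phosphatase Dusp6 (ENSMUSG00000019960, chr10:99263231-99267489, plus strand), also selective for ERK and often read as a gauge of ERK activity, was at 7.82 FPKM in the library labelled TGFBR3 OE and 8.23 in the control, from 1665 and 2382 counts. The ratio was −0.07 (−0.15 to 0.02), and 31% of the tested genes had a lower one. Its interval crossed 0 but lay below the median of the tested genes, 0.14, and after centring the ratio was −0.20. The interval of the plain ratio allowed the control to be between 0.988-fold and 1.12-fold the other library. Against genes of like GC content Dusp6 was lower, at −0.25, as described below.

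Among the 3 families the Sprouty genes were furthest apart before the GC trend was removed, with Spry2 higher, Spry1 lower and Spry4 within counting error of 0. With that trend removed the phosphatases were further apart, from 0.27 for Dusp1 to −0.25 for Dusp6, against 0.15 to −0.32 for Sprouty. Spry2 (ENSMUSG00000022114, chr14:105891947-105896819, minus strand), the most abundant Sprouty transcript here, was at 9.60 FPKM in the library labelled TGFBR3 OE and 6.65 in the control, from 1360 and 1283 counts. It had the highest ratio of the 10 members, 0.47 (0.37 to 0.57), or 1.44-fold in plain FPKM (1.34 to 1.56). A lower ratio was found for 80.0% of the tested genes. Centring left 0.33 of the Spry2 ratio, and removing the GC trend left 0.15.

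Spry1 (ENSMUSG00000037211, chr3:37639947-37644598, plus strand), a paralog with the same brake function, showed the opposite order, at 1.8 FPKM against 2.76 in the control, from 357 and 744 counts. Its ratio of −0.43 (−0.55 to −0.30) was the lowest of the members, and 9.13% of the tested genes lay below it. In plain FPKM the control was 1.53-fold higher (1.35 to 1.74), past 1.5-fold. With the GC trend also removed, the plain log2 ratio was −0.50, short of 1.5-fold. Both the pseudocount of 1 and the GC correction thus decide on which side of that threshold this low gene falls. The ratio was −0.52 after centring and −0.32 with the GC trend removed, and the plain log2 ratio after centring was −0.77. The Spry1 exons overlap those of Gm42922 on the opposite strand over 710 bases, and Gm42922 had 1 and 10 counts.

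Spry4 (ENSMUSG00000024427, chr18:38586247-38601415, minus strand), the remaining Sprouty gene here, was at 1.67 FPKM in the library labelled TGFBR3 OE and 1.55 in the control, from 538 and 682 counts. Its ratio of 0.07 (−0.04 to 0.17) was −0.03 after centring, so its direction depends on the scaling. The 1.08-fold plain ratio had an interval of 0.960 to 1.21. The paralog Spry3 had no deposited values.

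Spred1 and Spred2 had nearly the same ratio before the GC trend was removed, and the interval of Spred3 crossed 0. Spred1 (ENSMUSG00000027351, chr2:117121374-117182279, plus strand), whose product recruits neurofibromin, was at 7.98 FPKM in the library labelled TGFBR3 OE and 6.43 in the control, from 3672 and 4031 counts. The ratio was 0.27 (0.22 to 0.33), with 63.1% of the tested genes below it. It was 0.14 after centring, but −0.17 with the GC trend removed, so the direction of Spred1 turned with that correction.

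Spred2 (ENSMUSG00000045671, chr11:19924375-20024026, plus strand), the highest Spred transcript, was at 12.02 FPKM in the library labelled TGFBR3 OE and 9.70 in the control, from 3766 and 4142 counts. Its ratio was 0.28 (0.22 to 0.34), 0.14 after centring and 0.21 with the GC trend removed. Of its 31-base sequence words 4.2% also occur in Gm14612, so a small part of its fragments could be counted elsewhere.

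Spred3 (ENSMUSG00000037239, chr7:29158829-29170411, minus strand), the family member whose inhibition of ERK is known to be the weakest, was at 3.57 FPKM in the library labelled TGFBR3 OE and 3.71 in the control, from 1509 and 2132 counts. The ratio was −0.04 (−0.12 to 0.03), and −0.16 after centring. Its interval crossed 0 but lay below the median of the tested genes, 0.14. Its exons overlap those of Ggn on the opposite strand over 202 bases, and Ggn had 160 and 359 counts.

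The balance within each family does not depend on the total of a library, since a ratio of 2 genes in the same library cancels it. Among 12 pairs within families, 10 had an interval of the change in their count ratio that excluded 1. The pairs share genes, and the share among pairs of other genes was not computed. The count therefore does not set these families apart. Spry2 outnumbered Spry1 5.33-fold in FPKM in the library labelled TGFBR3 OE and 2.41-fold in the control, and this ratio was 2.21-fold greater in the former (1.9 to 2.57). With the GC trend removed from both genes the same change was 1.53-fold. Dusp1 exceeded Dusp5 14.4-fold and 8.11-fold, a change of 1.77-fold (1.51 to 2.07), and of 1.61-fold with the GC trend removed. These were the largest changes of balance in their families.

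The Spred1 to Spred2 ratio was 0.664 in the library labelled TGFBR3 OE and 0.663 in the control, a change of 1.0-fold (0.940 to 1.07). Before correction, Spred1 and Spred2 thus kept their proportion within counting error. With the GC trend removed the change of their ratio was 0.713-fold, below that interval, so the constant proportion depends on the scaling. Each of them gained on Spred3, by 1.29-fold (1.19 to 1.39) for Spred1 and 1.28-fold (1.19 to 1.39) for Spred2. With the GC trend removed the gain of Spred1 turned to 0.875-fold, while that of Spred2 was 1.23-fold. Dusp4 and Dusp6 also kept their ratio within error, with a change of 1.05-fold (0.945 to 1.17), although this was 1.34-fold with the GC trend removed.

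As shares of the summed FPKM of the family, Spry1 made up 13.8% of Sprouty transcripts in the library labelled TGFBR3 OE and 25.2% in the control, Spry2 73.5% and 60.7%, and Spry4 12.8% and 14.1%. Dusp1 made up 60.4% and 53.4% of the 4 phosphatases, and Dusp5 4.19% and 6.58%. Dusp6 held 21.8% and 25.2% of that sum and Dusp4 13.6% and 14.9%. The Spred shares were closer between the libraries, at 33.9% and 32.4% for Spred1, 51.0% and 48.9% for Spred2, and 15.1% and 18.7% for Spred3. The order of the members by level was the same in both libraries for the Dusp and the Spred genes and for the Spry genes too, although Spry1 stood well above Spry4 in the control and close to it, at 1.8 and 1.67 FPKM, in the other library.

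**Figure D3:**
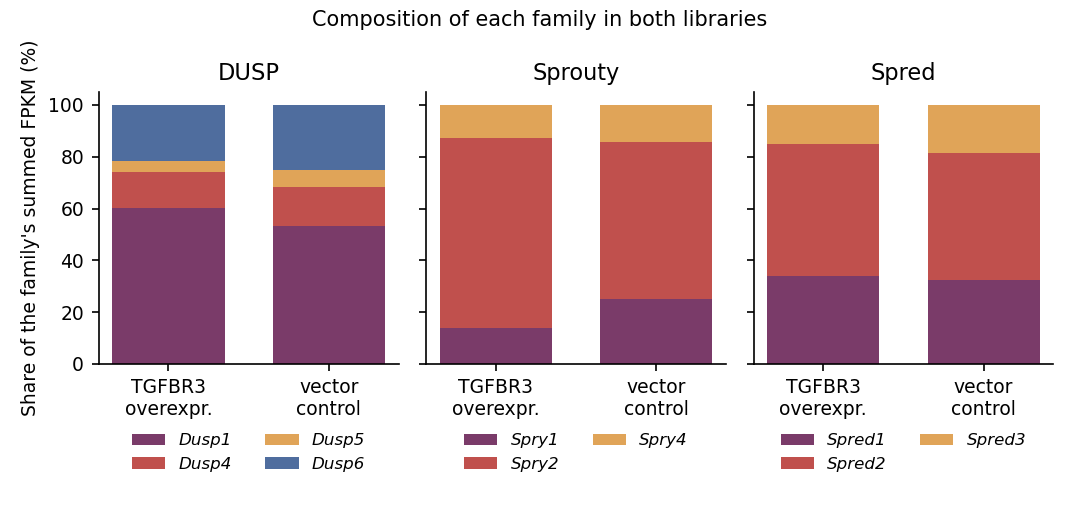
Percent of the summed FPKM of each family (4 Dusp, 3 Spry and 3 Spred genes) contributed by each member, for the library labelled TGFBR3 OE and the vector control, 1 library each. Spry1 took 13.8% against 25.2% of the Sprouty sum, and the Spred shares differed least.

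The sums of the families were 35.81 and 32.68 FPKM for the 4 phosphatases, 13.07 and 10.96 for Sprouty and 23.57 and 19.84 for Spred, in the library labelled TGFBR3 OE and the control. All 10 members summed to 72.45 and 63.48 FPKM. Dusp1 alone gave more than any other member to that sum in both libraries. The log2 ratios of the sums in plain FPKM were 0.13 for the phosphatases, 0.25 for Sprouty, 0.25 for Spred and 0.19 for all 10 members. The median plain log2 ratio of the genes tested was 0.17, so the sum of all 10 members does not set them apart.

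The ratio of a gene moved with the GC content of its transcripts over all genes tested. In 20 bins of 11207 tested genes with a known GC content, the median ratio went from 0.46 in the bin of lowest GC content to −0.25 in the highest. The members span much of that range, from 41.5% for Spred1 and 46.2% for Spry2 to 56.3% for Spry1 and 56.7% for Dusp5. The median of their own bins was 0.45 for Spred1, 0.32 for Spry2 and 0.19 for Dusp6, against −0.10 for Dusp4, Dusp5 and Spry1. Relative to these bin medians, Dusp1 (0.27), Spred2 (0.21), Spry2 (0.15) and Dusp4 (0.10) were higher, and Spry1 (−0.32), Dusp6 (−0.25), Dusp5 (−0.23), Spred1 (−0.17), Spred3 (−0.06) and Spry4 (−0.03) were lower. With this correction the median over the 10 members was −0.05, and none passed 1.5-fold. Spry1, Dusp5, Dusp6 and Spred3 were lower and Dusp1, Spry2, Spred2 and Dusp4 higher both before and after it. Before it, the intervals of Dusp4, Dusp6 and Spred3 crossed 0.

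**Figure D4:**
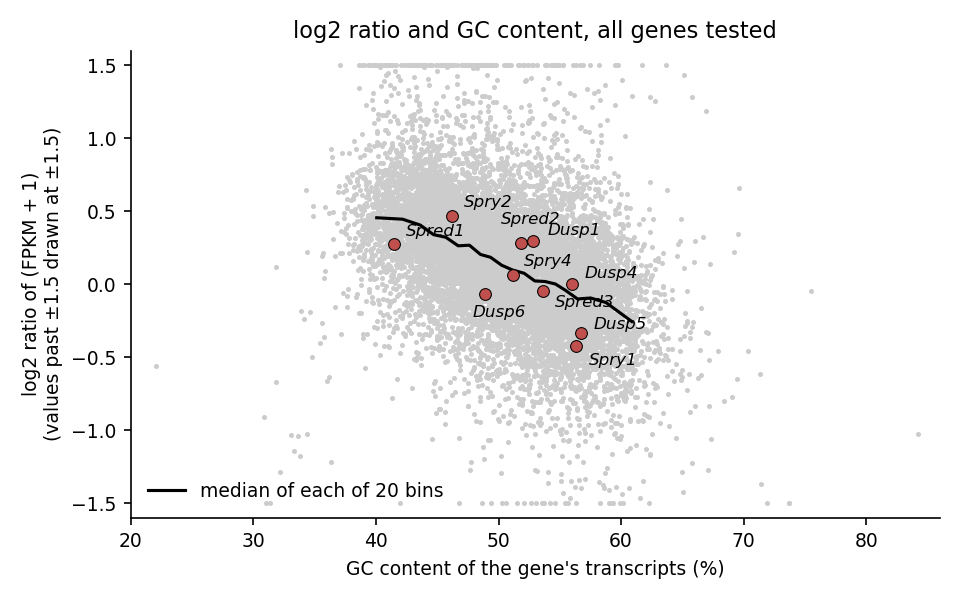
GC content of the transcripts (percent) against the log2 ratio of (FPKM + 1) for all tested genes (grey) and the 10 members (red), with values beyond the range of the axis drawn at its edge and the line joining the medians of 20 bins. Spred1 and Spry2 lie at low GC content, where the median is highest, and Spry1 and Dusp5 at high GC content.

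The rest of the pathway was described by lists of genes, by the same measure. Over 10 lists with 107 genes, 87 had a mean FPKM of at least 1. Of these 52 were higher and 35 lower, 8 at least 1.5-fold higher and 6 at least 1.5-fold lower, beside 13.3% and 4.91% of all genes tested, and the median was 0.11, or −0.05 with the GC trend removed. Among the other MAP kinase phosphatases, 3 of 4 were higher, with a median of 0.17, or 0.06 with the GC trend removed. Dusp10, which acts on p38 and JNK, was at 12.49 FPKM in the library labelled TGFBR3 OE and 7.65 in the control (ratio 0.64, and 0.46 with the GC trend removed), and so differed more than any of the 4 phosphatases among the members. Dusp16 was at 2.34 and 1.65 (0.33) and Dusp8 at 1.87 and 2.07 (−0.10), and with the GC trend removed they were at 0.01 and 0.03, where the sign of Dusp8 had turned. Of 6 atypical dual specificity phosphatases, 4 were higher and 2 lower, with a median of 0.12 that turned to −0.20 with the GC trend removed. Dusp23 was at 2.15 and 3.80 (−0.61), Dusp18 at 5.78 and 4.34 (0.34) and Dusp14 at 2.34 and 1.96 (0.17), and these 3 had the same sign with the GC trend removed (−0.57, 0.16 and 0.15).

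Other brakes on receptors and RAS were higher in 7 and lower in 4 of 11, with a median of 0.21 that turned to −0.09 with the GC trend removed. Lztr1, part of a ubiquitin ligase for RAS proteins, stood at 11.19 FPKM in the library labelled TGFBR3 OE and 17.69 in the control (−0.62). The ubiquitin ligase Cbl, which marks active receptors for degradation, was at 4.85 and 2.89 (0.59), and Nf1, the neurofibromin that Spred proteins recruit, at 2.68 and 1.53 (0.54). After the same correction Lztr1 was at −0.62, Cbl at 0.38 and Nf1 at 0.20. Spred2 and Nf1 thus both had the higher level in the library labelled TGFBR3 OE, while Spred1 turned with the correction.

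Upstream of the inhibitors, receptor tyrosine kinases were higher in 3 and lower in 4 of 7, with a median of −0.06, or −0.09 with the GC trend removed. Met, the receptor of hepatocyte growth factor, was at 1.69 and 0.74 FPKM (0.63), the insulin receptor Insr at 2.54 and 1.93 (0.27) and Egfr at 6.83 and 5.89 (0.18). Corrected for the GC trend, Met was at 0.36, while Insr and Egfr turned to −0.05 and −0.08. Growth factor ligands were higher in 5 and lower in 4 of 9, with a median of 0.05 that turned to −0.03 after centring and to −0.22 with the GC trend removed. Fgf10 was at 7.42 and 4.03 (0.74), Fgf7 at 42.62 and 27.81 (0.60) and Fgf18 at 1.38 and 2.36 (−0.50). With the GC trend removed the ratio was 0.30 for Fgf10, 0.14 for Fgf7 and −0.50 for Fgf18.

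Adaptors and RAS proteins were higher in 11 and lower in 5 of 16, with a median of 0.14, equal to that of all genes tested, which turned to −0.02 with the GC trend removed. Shoc2, a scaffold for RAF activation, was at 8.5 and 4.83 FPKM (0.70), the FGF receptor adaptor Frs2 at 6.56 and 3.74 (0.67) and the RAS activator Sos1 at 2.36 and 1.25 (0.58). Removing the GC trend left ratios of 0.26, 0.35 and 0.13. Of 10 RAF, MEK, ERK, JNK and p38 kinases, 7 were higher and 3 lower, with a median of 0.24. Braf was at 1.53 and 0.75 (0.53) and Map2k1, which encodes MEK1, at 79.41 and 56.40 (0.49), and with the GC trend removed they were at 0.09 and 0.39. Mapk3, which encodes ERK1, was at 78.94 and 107.74 (−0.44), and at −0.34 with the GC trend removed. The median of the 10 kinases was 0.00 with that trend removed.

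Other transcripts that ERK induces, as it does those of the inhibitors, were higher in 5 and lower in 7 of 12, with a median of −0.24 that was −0.07 with the GC trend removed. Egr2, an early growth response factor, was at 1.29 FPKM in the library labelled TGFBR3 OE and 3.4 in the control (−0.94), from 297 and 1069 counts. The immediate early gene Ier2 was at 10.92 and 16.68 (−0.57), and Fosl1, a partner of JUN in AP-1, at 38.22 and 28.40 (0.42). Corrected for the GC trend, Egr2 was at −0.97, Ier2 at −0.31 and Fosl1 at 0.67. Like the inhibitors themselves, these transcripts showed no single direction.

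**Figure D5:**
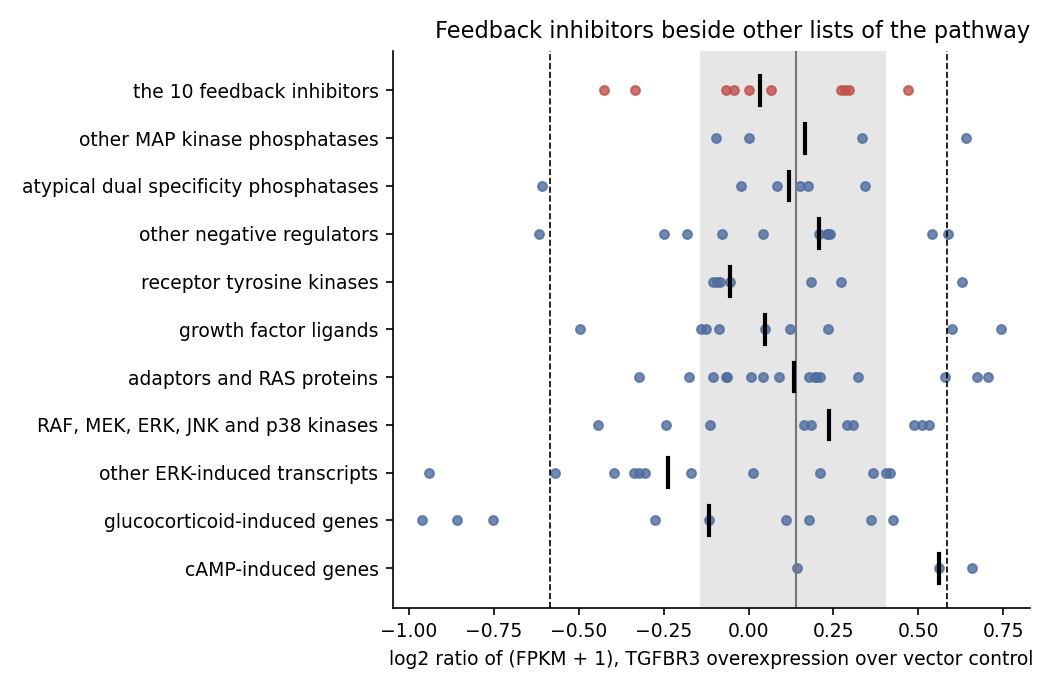
Log2 ratio of (FPKM + 1) of each tested gene in the pathway lists and among the members (points), with a bar at the median of each list. The grey band holds the middle 50% of all genes tested and the dashed lines mark 1.5-fold in either direction. The median of the other ERK-induced transcripts was −0.24 and that of the kinases 0.24, and the 10 members were spread around 0.03.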

How the data were processed

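RNA of 2 cultures of FAPs was sequenced, 1 library per condition, after poly(A) selection and dUTP marking of the second strand. The authors deposited a raw count per gene and library. Beside it stands an FPKM value with 2 decimals, for which the authors scaled the count by gene length and library total. The study's methods name STAR and FeatureCounts on mm10, whereas the submitters' processing notes name cutadapt 1.9, HISAT2 2.2.1, StringTie 2.1.6, DESeq2 and edgeR. Which of them made the files, and whether strand was used in counting, is not given in the sources used here, so fragments of overlapping genes on opposite strands cannot be told apart.

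Values were analysed with Python 3.11.15, numpy 2.4.6, pandas 2.3.3 and SciPy 1.17.1, and plots were drawn with matplotlib 3.10.9. The measure was the log2 ratio of (FPKM + 1), over the genes whose mean FPKM reached 1, with 1.5-fold as the threshold. No test was run, since 1 library per condition gives no estimate of the spread between cultures. The study's methods name a KC-Digital stranded library kit, and whether molecular identifiers were used in counting is not known here. The intervals cover counting error only and are narrower than the full error. GC content, exon length and gene positions came from GENCODE M21 (mm10, GRCm38), and promoters from RefSeq (GRCm38.p6). The scripts were checked on simulated counts.

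The members and lists were chosen with earlier results of these data known. Named were the 10 members, Tgfbr3, Mapk3 and up to 3 genes of each list with the largest absolute ratio, except 1 item that is not reported here; single markers and overlapping genes were named beside the results they touch. The lists were other MAP kinase phosphatases, atypical phosphatases, other negative regulators, receptor tyrosine kinases, ligands, adaptors and RAS proteins, kinases, ERK-induced, glucocorticoid-induced and cAMP-induced genes, and markers of 6 cell types. Alternatives were a pseudocount of 0.1, plain FPKM ratios, CPM, centring on the median gene, rescaling without the 50 highest genes, removal of the GC or the length trend, and a 2-fold threshold. The plain ratio centred, or with the GC trend removed, was added after seeing the data.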

Additional observations from a re-analysis of the deposited data

How the results depend on the processing

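The count of members at least 1.5-fold lower was 0 as reported and 1 with a pseudocount of 0.1 and with the plain FPKM ratio, and the 1 member was Spry1 both times, beside 6.6% and 6.84% of the tested genes. It was 2, Spry1 and Dusp5, with the plain ratio centred on the median gene, and 0 with the GC trend removed from the plain ratio. The median ratio of the members was 0.03 as reported and −0.076 when centred on the median gene, and −0.098 with the plain ratio so centred. Dusp1, Dusp5, Dusp6, Spry1, Spry2, Spred2 and Spred3 kept their sign under all 9 alternatives, of which the plain ratio with the GC trend removed and the plain ratio centred were chosen after seeing the data. Spred1 kept it in 7 of 9, and Dusp4 and Spry4 in 4 of 9. The Spry2 ratio ran from 0.12 to 0.53 and that of Spry1 from −0.77 to −0.32. No paired analysis was possible because each condition has 1 library. For the same reason no library could be left out. Counts of 253 to 5338 per member limit precision through counting error, and the spread between cultures was not measured.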

Other observations

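The adipogenic induction medium of the labels held dexamethasone and IBMX, although the medium at harvest is not given. Dusp1 is known to be induced by glucocorticoids and by cAMP as well as by ERK, so genes of those responses were listed too. Of 9 glucocorticoid-induced genes, 4 were higher and 5 lower in the library labelled TGFBR3 overexpression, with a median ratio of −0.12 (−0.25 with the GC trend removed). Beside 4.91% of all genes tested, 3 of the 9 were at least 1.5-fold lower. These were the metallothioneins Mt1, at 346.65 and 676.03 FPKM (−0.96), and Mt2, at 878.04 and 1480.60 (−0.75), which bind zinc and also respond to metals, and the adipogenic transcription factor Cebpd, at 50.72 and 92.82 (−0.86). Their ratios with the GC trend removed were −0.96, −0.77 and −0.96. The others that were lower were Fkbp5 (−0.28, and −0.41 with the GC trend removed) and Tsc22d3 (−0.12 and −0.25). The 4 that were higher were Sgk1 (0.43), Per1 (0.36), Klf9 (0.18) and Zbtb16 (0.11). Fkbp5, Tsc22d3 and these 4 were named after their values were seen, and a likeness to Dusp1 was not tested. Klf9 turned to −0.03 with the GC trend removed.

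Of 7 cAMP-induced genes, 3 had a mean FPKM of at least 1. All 3 were higher in the library labelled TGFBR3 overexpression, as were 7079 of the 11213 genes tested. The nuclear receptor Nr4a1 was at 2.69 and 1.34 FPKM (0.66), the cAMP response modulator Crem at 1.88 and 0.95 (0.56) and the kinase Sik1 at 3.10 and 2.71 (0.14). With the GC trend removed these ratios were 0.76, 0.16 and 0.24, and their median went from 0.56 to 0.24. Among 8228 tested genes with a promoter window, the 250 with a full cAMP response element had a median ratio of 0.19 and those without one 0.13. With the GC trend removed these medians were 0.05 and −0.01. Medians were also higher with an ETS site (0.19 against 0.13) or an interferon-stimulated response element core (0.28 against 0.13). They were lower with an AP-1 site (0.08 against 0.14) or a GC box (0.13 against 0.15). A link of the ratios to cAMP was not tested. The 111 genes with a CArG box had a median of 0.12, against 0.13 without, and Dusp5 with its 2 copies was at −0.33.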
